A study of Mus musculus with 5 samples.

Results

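Pou4f1 CUT&Tag signal was described here over 912 regions that lie inside later introns, that is inside the second or a later intron of a protein-coding gene and away from any gene start. They were taken by position alone from the 8038 regions that the authors deposited: the midpoint had to lie over 1 kb from every transcript start of GENCODE M21, outside all exons, and in intron 2 or later of the longest transcript of a protein-coding gene, with the longest gene taken where genes overlap. The 912 regions (the members) lie in 668 host genes, and the midpoint nearest to a start was 1002 bp from it. The table also holds 387 regions in first introns, 1223 between genes and 5147 within 1 kb of a start, and these classes serve as comparison.

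CUT&Tag finds the DNA that a chromatin protein occupies: an antibody on the protein brings a transposase that tags the DNA beside it, and the tagged fragments are sequenced. Each library came from 4 pooled retinas of wild-type mice, taken as embryos at E16.5 and dissociated with papain, so all groups share genotype and age and differ in the antibody: rabbit anti-Pou4f1 (2 libraries), rabbit IgG (2 libraries) or anti-H3K9AC (1 library, not analysed here). The deposited values are signal over each region, not read counts, and how many reads each library had is not stated in these sources. A whole retina holds many cell types, so the values do not tell how many cells carried the protein at a region.

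Pou4f1 (Brn3a) is a class IV POU transcription factor. Its POU-specific domain and its homeodomain together read an A/T-rich bipartite site, and in the retina it is made by postmitotic retinal ganglion cells, the neurons whose axons form the optic nerve. Introns of long neuronal genes commonly hold enhancers, DNA elements that bind such factors at a distance from the start they act on.

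The members were searched for the POU consensus, the 10-letter site of class IV factors that starts with ATNAAT, goes on with A or T and ends with ATT. The lines below give it in the members with the highest mean Pou4f1 signal among those that hold it within the central 200 bp, because these are the strongest regions that carry the site. Sequence is that of the mm10 build (GRCm38.p6), 5′ to 3′ on the strand on which the consensus reads, with 25 bases to each side. Capitals mark the match nearest the midpoint.
Zdhhc19, chr16:32524316-32524375, plus strand: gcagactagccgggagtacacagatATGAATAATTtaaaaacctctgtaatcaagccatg
Thsd7b, chr1:129473803-129473862, plus strand: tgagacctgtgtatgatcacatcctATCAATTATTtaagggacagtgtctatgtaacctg
Cntnap2, chr6:46451397-46451456, plus strand: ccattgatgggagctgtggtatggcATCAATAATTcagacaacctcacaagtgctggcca
Ercc6, chr14:32546962-32547021, minus strand: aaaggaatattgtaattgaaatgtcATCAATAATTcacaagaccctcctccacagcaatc
Snx29, chr16:11450757-11450816, minus strand: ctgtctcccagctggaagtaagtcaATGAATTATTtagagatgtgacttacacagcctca
Pcsk5, chr19:17707332-17707391, minus strand: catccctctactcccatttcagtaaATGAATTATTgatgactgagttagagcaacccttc
Erc2, chr14:28450884-28450943, minus strand: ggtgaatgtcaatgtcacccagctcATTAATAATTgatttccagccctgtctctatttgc
Plxna4, chr6:32203536-32203595, plus strand: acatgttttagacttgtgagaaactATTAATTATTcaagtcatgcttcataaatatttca
Shisal1, chr15:84395525-84395584, minus strand: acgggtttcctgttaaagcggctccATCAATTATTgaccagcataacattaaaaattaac
Lrrk1, chr7:66347376-66347435, plus strand: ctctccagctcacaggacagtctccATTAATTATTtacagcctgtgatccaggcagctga
Cdc14a, chr3:116369129-116369188, minus strand: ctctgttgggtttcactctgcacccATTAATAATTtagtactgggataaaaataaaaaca
In each of these 11 members the match lay within 100 bp of the midpoint, which follows from how they were chosen. The base after the match was T in 5, C in 3, G in 3 and A in 0. In Pcsk5 and Erc2 a second match on the other strand overlaps the one in capitals and runs past it. By signal the member in intron 2 of Piezo2, a mechanosensitive channel gene, falls between those of Cntnap2 and Ercc6, and its sequence is not shown.

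The highest signal of all members did not come with the consensus. The region in intron 2 of Tmem178b, chr6:40019169-40019934, had a signal of 1348 in Pou4f1 replicate 1 and 1816 in replicate 2 while both IgG libraries were at 0. Its central 200 bp are shown because neither the consensus nor its inner 8 letters (TNAAT, then A or T, then AT) are in them on either strand. Capitals mark the 1 match to CAGCTG, an E-box that proneural bHLH factors can bind.
Tmem178b, chr6:40019452-40019651, plus strand: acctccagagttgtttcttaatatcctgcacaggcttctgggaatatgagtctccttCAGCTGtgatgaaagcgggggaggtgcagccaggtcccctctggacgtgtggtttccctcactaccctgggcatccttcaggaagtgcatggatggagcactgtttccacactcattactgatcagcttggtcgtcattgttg
The absence of these letters from the window says nothing of what is bound there.

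Over the 912 members, the Pou4f1 replicates had median signals of 187 and 238, and the 2 IgG libraries, one named IgG and one named negative control, had 2.74 and 0. The middle 50% of members lay between 133 and 283 in replicate 1 and between 130 and 402 in replicate 2. Replicate 1 ranged from 29.5 to 1348, and replicate 2 from 0 to 1816. The 2 IgG libraries were listed at 0 in 435 and in 499 of the members, and their highest values were 436 and 736. Thus most members were well above IgG, and a small group in which IgG was high formed the other end.

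**Figure D1:**
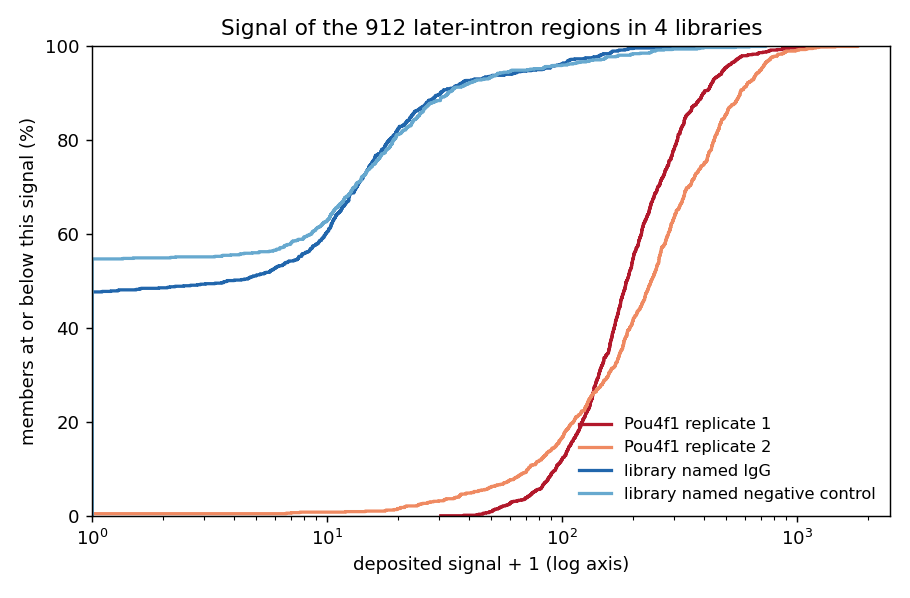
Cumulative share of the 912 later-intron regions (vertical axis, percent) by deposited signal plus 1 (horizontal log axis), with 1 line per library. The IgG lines begin near 50% because 435 and 499 members are listed at 0, while the Pou4f1 lines rise around their medians of 187 and 238.

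In 841 members (92.2%) each Pou4f1 library exceeded each IgG library, beside 96.5% of all regions. The reverse order was found in 25 members (2.74%), beside 1.46% of all regions. By limma on log2(signal + 1), with Benjamini-Hochberg adjustment over all regions, 637 members (69.8%) were higher in Pou4f1 at an adjusted p under 0.05, beside 64.8% of all regions, and 4 members (0.439%) were lower, beside 0.224% of all regions. The share higher was near the background of the table, and that above IgG was a little under it. The shares in the reverse order and lower were over it, on 25 and 4 members. In first-intron and intergenic regions 68.0% and 70.6% were higher, 93.3% and 90.6% lay above both IgG libraries, and 2.33% and 5.97% below both. The median log2 difference was 5.97 in the members and 5.22 over all regions. The authors called the regions on the Pou4f1 signal, with rabbit IgG as the control of that step. Part of the excess over IgG thus comes from how the regions were found, and the shares above IgG are no independent check of it.

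Whether a member passed the threshold depended on how many IgG libraries were at 0. All 274 members at 0 in both IgG libraries were called higher, as were 197 of 386 with a single IgG library at 0 (51.0%), and 166 of 252 with signal in both (65.9%). Over all regions the shares called were 99.7%, 39.4% and 74.1% in the same order, so this pattern is not particular to the members. A value of 0 in 1 IgG library beside a value above 0 in the other widens the spread of that group on the log scale. With 2 libraries against 2, an exact permutation test of a single region cannot give a p below 0.333, so single regions rest on limma. Leaving out Pou4f1 replicate 1 or replicate 2 lowered the count from 637 to 340 each time, and taking the column totals as library sizes lowered it to 277.

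Most members lay in long genes. The second intron held 250 of them (27.4%), the third 120 and introns from 10 onward 196, and the last intron of the host held 97. The host gene was over 100 kb long for 665 members (72.9%). The median distance was 3.62 kb to the nearest exon, beside 3.01 kb over all intron sequence that meets the rule of position, 14.8 kb to the nearest start of any gene and 105 kb to the start of the host. The nearest start was that of the host for 509 members (55.8%), so for the others another gene, often a noncoding one, starts closer. A total of 102 members touched an exon with an edge while their midpoint was intronic, and 2 were under 100 bp long.

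Per megabase of the genome that meets the same rule of position, there were 1.44 members in later introns, 1.76 regions in first introns, 0.934 between genes and 32.8 within 1 kb of a start. The median share of repeat-masked bases was 9.16% over the members, 8.21% over first-intron and 8.96% over intergenic regions. Of positions pooled over all qualifying introns 29.3% were repeat-masked, which is a pooled share and not a median over regions. Their central 200 bp had a median GC content of 49.0%, against 45.5% in the windows 2 kb to each side and 42.0% over windows from all qualifying introns. The median length was 926 bp. CpG dinucleotides were rare, with a median observed to expected ratio of 0.227.

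The POU consensus was in the central 200 bp of 113 members (12.4%, 95% exact Clopper-Pearson interval 10.3 to 14.7). In flanking windows of equal length, 2 kb away on either side, it was found in 18 of 1824 (0.987%, interval 0.586 to 1.56). Among 6324195 overlapping windows laid over all qualifying introns, 1.08% held it. The share at the centre was thus far above that of the surrounding sequence, although the centres are richer in G and C than both backgrounds. First-intron regions held the consensus in 11.6% and intergenic regions in 10.5%, with intervals that overlap that of the members. The share at starts was 0.680%. The intervals cover counting error only, and regions are not replicates of a condition, so no test was made.

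**Figure D2:**
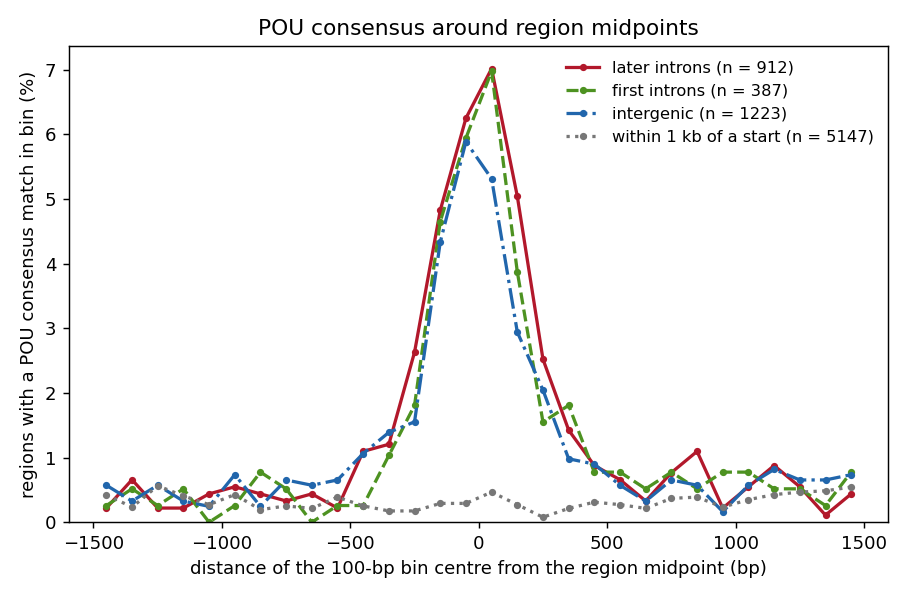
Share of regions (vertical axis, percent) with a POU consensus match in each 100-bp bin by distance from the midpoint (horizontal axis, bp), for 912 later-intron, 387 first-intron, 1223 intergenic and 5147 start regions. The line of the later introns rises to 7.02% in the bin centred at 50 bp and follows those of the first introns and intergenic regions, while that of the start regions stays flat.

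In whole regions the consensus occurred in 266 members (29.2%), of which 104 held 2 or more matches and 18 held 3 or more. Of the 398 matches, counted by place and strand, 160 lay within 100 bp of the midpoint and 285 within 200 bp, and the median distance was 123 bp. The plus strand held 201 of them. The free letter 3 was G in 29.4%, A in 27.1%, T in 25.9% and C in 17.6% of matches, and letter 7 was A in 54.3% and T in 45.7%.

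Matches on opposite strands can overlap, as in intron 2 of Nek11, a NIMA-related kinase. This member was among the 10 with the highest signal and is shown because its 3 matches lie close together, away from the midpoint. The 2 runs of capitals hold them: the first is the overlap of a match on each strand.
Nek11, chr9:105379837-105379918, plus strand: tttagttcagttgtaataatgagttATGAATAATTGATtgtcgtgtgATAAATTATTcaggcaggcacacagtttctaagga
Its signal was 1083 and 768 in the Pou4f1 libraries, with both IgG libraries at 0. The 3 matches were centred 142.5, 139.5 and 120.5 bp before the midpoint. The member with the most matches, 7, was in B4galt4, a galactosyltransferase gene, and was chosen after its values were seen. The Pou4f1 libraries had 253 and 744 and the IgG libraries 45.02 and 0, and did not pass the threshold (limma adjusted p 0.0864).

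Ranked by mean Pou4f1 signal into 5 equal groups, the members held the consensus at the centre in 3.30% of the lowest group, 9.34%, 9.84% and 16.48% of the next ones and 23.0% of the highest (interval 17.1 to 29.7). The inner 8 letters went from 6.04% to 43.2% in the same order. Base composition moved with both: by GC content of the central 200 bp, the consensus was in 26.9% of the group poorest in G and C and in 0 of the 183 members richest in them, which allows up to 1.996%. The median GC content of whole members fell from 52.6% in the lowest group by signal to 47.05% in the highest. How far GC content accounts for the order by signal was not tested.

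**Figure D3:**
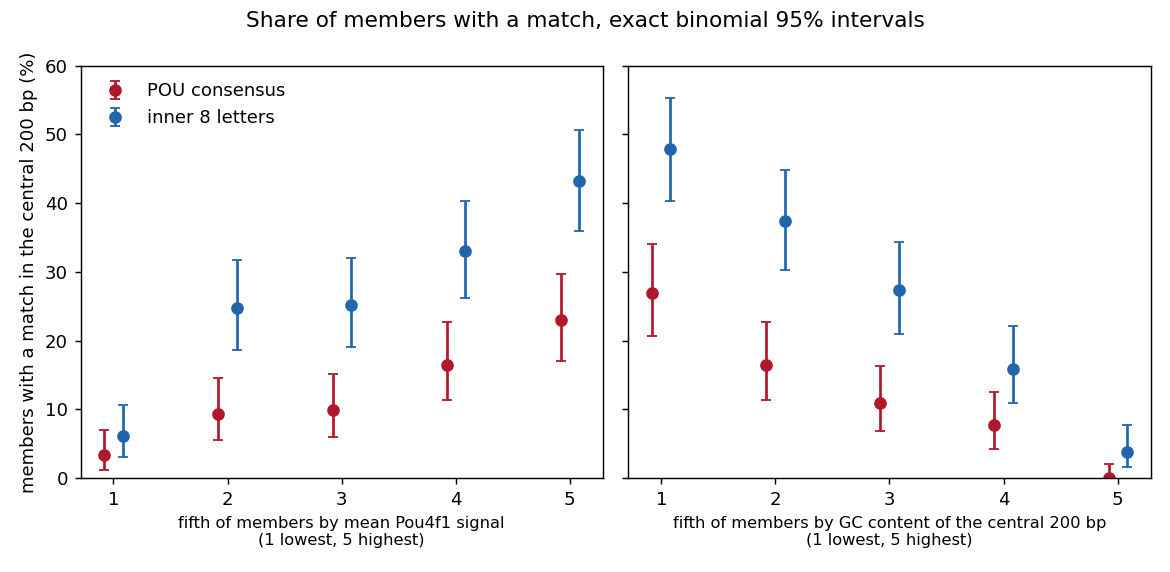
Share of members with a match in the central 200 bp (vertical axis, percent), for 5 groups of the members by mean Pou4f1 signal on the left and by GC content of the central 200 bp on the right. Points are shares of 182 or 183 members with exact binomial 95% intervals, and the consensus goes from 3.30% to 23.0% on the left and from 26.9% to 0 on the right.

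The 113 members with the consensus had median signals of 261 and 321 in the Pou4f1 libraries and 0 in both IgG libraries. The other 799 had 179 and 225, against 3.68 and 0. The lowest and highest values overlap widely, from 99.7 to 1109 in replicate 1 for members with the consensus and from 29.5 to 1348 for those without. None of the 25 members below IgG held the consensus, beside 12.4% of all members. Their median GC content was 59.7%, and 0 of the 183 members with the centres richest in G and C held it. Members with the consensus also lay further from exons, with a median of 10.4 kb against 3.25 kb, and in longer introns, with a median of 75037 bp against 25464 bp.

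Of the other motifs searched, TAATTA, the core of many homeodomain factors, was at the centre of 9.76% of members and in 5.70% of the flanks. These letters stood in 30.1% of the members with the consensus and in 6.88% of those without, and the motifs can overlap. CAGCTG was in 18.1% of members, 9.87% of flanks and 7.64% of windows over all qualifying introns. By GC content this E-box went from 8.24% in the poorest of the 5 groups to 25.8% and 20.2% in the 2 richest, and it was in 20.4% of members with the consensus and 17.8% of those without. The related E-box CAGATG was in 19.8% against 15.5% of flanks. CCCNNGGG, the core read by Ebf factors, was in 9.76% against 4.77% of flanks, and in 12.9% of first-intron, 12.6% of intergenic and 15.6% of start regions. In first-intron and intergenic regions TAATTA was in 7.49% and 8.75%, CAGCTG in 16.0% and 15.8%, and CAGATG in 20.2% and 18.3%. None of these motifs was thus particular to later introns.

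The octamer ATGCAAAT of class II POU factors was in 0.658% of members and 1.32% of flanks. Of letters read at promoters, GGGCGG, read by Sp and Klf factors, was in 4.82% of members, 2.74% of their flanks and 53.8% of start regions, and the NRF1 site was in 0.110% of members and 6.57% of start regions. CCAAT, read by NFY, was in 20.4% of members, 24.3% of their flanks and 23.2% of start regions.

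Without choosing a motif, the 8-letter word with the largest excess at the centre over the flanks, on either strand, was ATAATTCA, in 73 members (8.004%) and 0.493% of flank windows. It was followed by ATTATTTA in 8.11% against 1.70%, AATAATTC in 5.92% against 0.713% and ATGAATTA in 5.48% against 0.548%. In the regions of first introns and between genes, which were not used to rank the words, ATAATTCA was in 5.59% of centres and 1.18% of flanks. The leading words share letters with the POU consensus and with one another, so they are not separate motifs.

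The 10 members with the highest mean Pou4f1 signal were those of Tmem178b and Nek11, above, and of Zdhhc19, Sdk1, Vamp4, Thsd7b, Nell2, Pcsk2, Usp25 and Opcml. Of them 9 passed the threshold, 7 were at 0 in both IgG libraries, and 2 held the consensus at the centre and 6 anywhere in the region. In Zdhhc19, a palmitoyltransferase gene, the region chr16:32524014-32524799 had 1109 and 1166 with Pou4f1 and 0 in both IgG libraries (limma log2 difference 10.15 on the log2(signal + 1) scale, SE 0.375, with an adjusted p of 0.00222). In intron 31 of Sdk1, which codes for an immunoglobulin superfamily protein of retinal synapses, chr5:142128102-142128640 had 988 and 1237 against 0 and 26.4 (limma log2 difference 7.72, SE 1.92, with an adjusted p of 0.0418). The Pou4f1 libraries were close to each other in both, and the standard error is larger where only 1 IgG library has signal.

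Vamp4, a vesicle SNARE gene, had 752 and 1455 in its last intron, and Usp25, a deubiquitinase gene, had 453 and 1202 in intron 6. In both, replicate 2 was the higher by far, and both IgG libraries were at 0. Thsd7b had 919 and 1088 in intron 2, and Pcsk2, the prohormone convertase of neuroendocrine cells, had 865 and 797 in intron 5, also with 0 in IgG. Opcml, an IgLON adhesion gene, had 762 and 860 in intron 4 against 18.5 and 0. Nell2, which codes for a secreted neural protein, had 863 and 1106 in intron 9 against 0 and 39.1, and was the member among these that did not pass the threshold (limma adjusted p 0.0551).

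Among the members with the consensus, those printed at the start had signals that lay well above IgG in each library. They were chosen for high Pou4f1 signal, and all 183 members of the highest of the 5 groups by signal lay above both IgG libraries. Cntnap2, a neurexin-family adhesion gene, had 769 and 820 against 12.006 and 0 (limma adjusted p 0.0268). Erc2, an active zone gene, had 714 and 576 against 22.1 and 0 in its last intron (limma adjusted p 0.0448). Plxna4, a semaphorin receptor gene, had 477 and 756 against 9.29 and 0 (limma adjusted p 0.0246). Replicate 1 was the higher in Erc2 and in Pcsk5, another convertase gene, with 738 and 557, and replicate 2 in most others.

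Both IgG libraries were at 0 in 3 further members of that list. Ercc6, a DNA repair gene, had 564 and 767. Snx29, a sorting nexin gene, had 613 and 688, and Cdc14a, a phosphatase gene, had 426 and 777. Lrrk1, a leucine-rich repeat kinase gene, had 491 and 731 against 12.1 and 0, and Shisal1 had 510 and 723 against 7.25 and 0. All of these passed the threshold, while the member of Piezo2, with 549 and 1019 against 0 and 41.4, did not (limma adjusted p 0.0634).

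**Figure D4:**
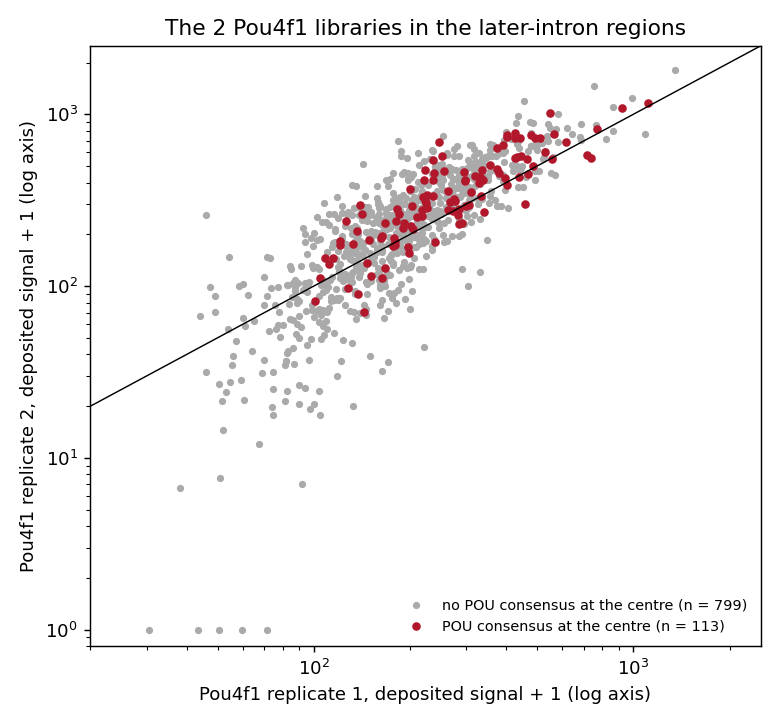
Deposited signal plus 1 of each member in Pou4f1 replicate 1 (horizontal log axis) and replicate 2 (vertical log axis), with the 113 members that hold the POU consensus at the centre in red and the other 799 in grey. The line marks equal signal. Most points of high signal lie above it, and 5 members at the bottom are listed at 0 in replicate 2.

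Which of the 2 Pou4f1 libraries was the higher varied with position and signal. Replicate 2 was the higher in 602 members (66.0%), in 63.6% of first-intron and 63.0% of intergenic regions, and in 16.6% of regions within 1 kb of a start, where the medians were 183 and 130. The ratio of replicate 2 over replicate 1 had a median of 1.20 over the members. It went from 0.708 in the lowest of the 5 groups by mean signal to 1.42 in the highest. These groups were ranked on the mean of the same 2 libraries, of which replicate 2 had the wider spread. How far the order of the ratios follows from that ranking was not tested. Replicate 2 was over 2 times replicate 1 in 73 members, and the reverse held in 64. Across the members, Pearson's r between the replicates was 0.852 and Spearman's rho 0.843. Between the IgG libraries r was 0.717 and rho 0.262. These are correlations across regions that share libraries, and a difference between replicates has no test because each is a single library.

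Among members above the median signal, the ratio was highest in Evc2, with 183 and 696, Rbfox1, with 142 and 514, and Tanc2, with 186 and 609. It was lowest in Brinp1, with 331 and 120, Map2k5, with 346 and 183, and Palmd, with 457 and 301. The Rbfox1 region, chr16:7026770-7027612, was also uneven in IgG, where the library named IgG had 4.16 and the negative control 374. Without the library named IgG its log2 difference of 2.63 became -0.47, and without the negative control it was 5.72.

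Several genes held more than 1 member: 149 genes held 2 or more, with 393 members in all, and 31 held 4 or more, with 138. Neighbouring members of a gene were a median of 46827 bp apart, and 35 of 244 neighbouring pairs were under 5 kb apart. Of the 138 members in the 31 genes, 99 were higher in Pou4f1 (71.7%) and 0 lower, 132 lay above both IgG libraries and 17 held the consensus at the centre. For comparison, 69.8% of all members and 64.8% of all regions were higher. Over all regions 0.224% were lower, and in 96.5% each Pou4f1 value exceeded each IgG value. The consensus was at the centre of 12.4% of all members. The counts of the 31 genes thus lay near the background. In 7 of these genes every member passed the threshold, and in 1 none did.

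The most members, 7, were assigned to Fgfr2, which codes for a fibroblast growth factor receptor. All of them lie in intron 2 of an annotated transcript that makes the host 2961 kb long and runs across other genes, and the nearest starts are those of Tacc2, Plekha1, Fam53b, Ctbp2 and noncoding genes. The count thus follows from 1 long gene model. Ccl1, a chemokine gene with 4 members over 129 kb, and Gm37240, with 4 over 1391 kb, are also such long models. Auts2, Camta1 and Frmd4a each held 6, and Casz1, Ldlrad3, Mtus2, Tenm4 and Ttc28 each held 5.

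In Auts2, a gene of neuronal chromatin regulation, the 6 members lie in introns 4 and 5 and ranged from 136 to 252 in replicate 1 and from 168 to 414 in replicate 2, with at most 29.5 in IgG, and 5 passed the threshold. In Camta1, a calmodulin-binding transcription activator gene, 5 of 6 passed. The remaining one, chr4:151531859-151532742, had a signal of 117 and 328 with Pou4f1 but 247 and 736 with IgG, and is the member of these genes with the highest IgG. In Casz1, a zinc finger gene of retinal progenitors, 3 of 5 passed, and the highest, in intron 7, had 242 and 492 with 0 in IgG.

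In Lmx1b, a LIM homeodomain gene, none of the 4 members in intron 2 passed, though 3 of them lay above both IgG libraries. The highest had 192 and 299 against 0 and 17.5 (limma log2 difference 5.81, SE 1.72, with an adjusted p of 0.0559). The lowest had 90.6 and 6.04 against 0 and 7.63, so that its replicates differ by more than its distance from IgG. All 4 passed in Ebf1, Syt1, Cdh13, Dscaml1 and Tanc1.

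Another 8 members of genes with 4 or more members that code for transcription factors, adhesion or synaptic proteins held the consensus. They are shown because they put the site beside the genes a reader of retinal development will know, again with the match nearest the midpoint in capitals. In Syt1 and Cdh13 a further match on the other strand overlaps it.
Syt1, chr10:108767614-108767673, plus strand: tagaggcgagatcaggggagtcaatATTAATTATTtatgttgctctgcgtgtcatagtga
Dscaml1, chr9:45626114-45626173, minus strand: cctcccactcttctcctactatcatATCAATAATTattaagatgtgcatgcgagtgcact
Ebf1, chr11:44837820-44837879, minus strand: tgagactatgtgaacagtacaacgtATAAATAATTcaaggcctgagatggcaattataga
Tenm4, chr7:96808143-96808202, minus strand: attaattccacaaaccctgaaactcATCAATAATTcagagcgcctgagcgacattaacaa
Tenm3, chr8:48611178-48611237, plus strand: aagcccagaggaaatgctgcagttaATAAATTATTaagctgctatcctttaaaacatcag
Cdh13, chr8:118591369-118591428, plus strand: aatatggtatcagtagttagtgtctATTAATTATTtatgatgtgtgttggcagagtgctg
Ptprm, chr17:66996862-66996921, plus strand: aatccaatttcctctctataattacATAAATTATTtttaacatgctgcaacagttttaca
Ebf1, chr11:44831564-44831623, plus strand: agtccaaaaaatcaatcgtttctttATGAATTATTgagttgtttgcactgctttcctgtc

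Syt1 codes for the calcium sensor of synaptic vesicle release. Its member with the consensus had 424 and 554 with Pou4f1 and 0 in both IgG libraries (limma log2 difference 8.92, SE 0.403, with an adjusted p of 0.00222). Ebf1 codes for a helix-loop-helix factor of developing neurons. Its members with the consensus, both in intron 6, had 341 and 270 and, nearer to the start, 196 and 168, with 0 in IgG, and in both replicate 1 was the higher.

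The teneurins are transmembrane proteins of synaptic partner matching, and Tenm3 acts in retinal ganglion cell wiring. Its member with the consensus had 219 and 331 with 0 in IgG, and 3 of its 4 members passed. In Tenm4, 4 of 5 passed. Its highest member, in intron 2, had 687 and 872 against 10.99 and 0, and the one with the consensus, in intron 17, had 265 and 306 with 0 in IgG. The members with the consensus in Cdh13, an atypical cadherin gene, had 184 and 263 with 0 in IgG, and that of Dscaml1, an adhesion gene of retinal neurons, had 221 and 415 against 0 and 8.60. That of Ptprm, a receptor phosphatase gene, had 179 and 237 against 13.6 and 0. In each of these members both Pou4f1 values lay above both IgG values. The same held in 92.2% of all members and 96.5% of all regions, which were called on Pou4f1 with IgG as control.

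The host genes were grouped by 11 lists of gene families, which hold 298 of the members (32.7%). For comparison with each list, 69.8% of all members and 64.8% of all regions were higher, and 12.4% of all members held the consensus. Genes of the adhesion list, which join cells at contacts and synapses, held 60 members, of which 49 were higher in Pou4f1 and 59 lay above both IgG libraries. Their median log2 difference was 6.36, beside 5.97 over the members and 5.22 over all regions, and 11 of them held the consensus (18.3%, interval 9.52 to 30.4). Transcription factor genes held 50 members, of which 42 were higher, with a median of 6.21. They had 3.11 members per megabase of their qualifying introns, against 1.44 over all genes, and 4 held the consensus. The highest were in Ebf3, with 467 and 610 against 9.39 and 0, in Gli2, the effector of Hedgehog signalling, with 428 and 557 against 11.4 and 0, and in Nfic, with 492 and 415 against 3.63 and 16.52.

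Synaptic vesicle, active zone and scaffold genes held 17 members, of which 16 were higher, beside 69.8% of all members and 64.8% of all regions. The consensus was in 5 (29.4%, interval 10.3 to 56.0), beside 12.4% of all members, and the median log2 difference was 7.06. These counts include the called member of Lrrk1 that holds the consensus, though Lrrk1 is a leucine-rich repeat kinase gene and not a vesicle or active zone gene. Besides Erc2 and Lrrk1, the highest was a Syt1 region in intron 3 with 362 and 661 against 0 and 9.26. Axon guidance genes held 16 members, of which 12 were higher, with a median of 7.14. In Nrp2, a semaphorin coreceptor gene, the last intron had 352 and 577 with 0 in IgG, and in Robo2, a Slit receptor gene, intron 2 had 211 and 594 with 0 in IgG. All 16 lay above both IgG libraries, and 1 held the consensus.

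Ion channel genes held 18 members, of which 13 were higher. Kcnk10, a leak potassium channel gene, had 541 and 702 against 9.86 and 33.8, Kcnip3, a channel-interacting protein gene, had 443 and 489 against 6.42 and 0, and Cacna2d1, an auxiliary calcium channel subunit gene, had 320 and 525 with 0 in IgG. Transmitter receptor genes held 21 members, of which 14 were higher. In Grik4, a kainate receptor gene, intron 3 had 475 and 897 against 14.4 and 34.2, and intron 5 had 561 and 562 with 0 in IgG. In Gabbr2, a GABA-B receptor gene, intron 2 had 417 and 503 against 14.3 and 0.

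RNA-binding protein genes held 20 members over few introns, 3.47 per megabase, of which 12 were higher. The highest was in intron 6 of Rbpms, a marker gene of retinal ganglion cells, with 434 and 983 and 0 in IgG, followed by Khdrbs1, with 340 and 506, and Srrm3, with 303 and 433, both with 0 in IgG. Cytoskeleton and motor genes held 37 members, of which 24 were higher and 1 held the consensus. Nav2, a neuron navigator gene, had 582 and 998 against 22.4 and 0, Myo18b, a myosin gene, had 573 and 824 against 3.71 and 8.65, and Kif26b, a kinesin gene, had 393 and 704 with 0 in IgG.

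Kinase and second messenger genes held 47 members, of which 35 were higher, and 7 of the 47 are those of the long Fgfr2 model. Ntrk3, the neurotrophin-3 receptor gene, had 679 and 738 with 0 in IgG, Ulk4 had 523 and 562 against 0 and 18.3, and Map3k5 had 491 and 468 with 0 in IgG. Chromatin regulator genes held 12 members in 4 genes, of which 8 were higher. The highest were in Auts2, with 252 and 414 and 0 in IgG, in Arid1b, a SWI/SNF subunit gene, with 172 and 417 against 0 and 26.02, and in Tet3, a DNA demethylase gene, with 225 and 336 against 9.79 and 11.6. In the lists the shares higher went from 12 of 20 to 16 of 17. Only the share of the RNA-binding protein genes lay under the 64.8% of all regions. Those of the RNA-binding, cytoskeleton and motor, transmitter receptor and chromatin regulator genes lay under the 69.8% of all members, and the others over it. No list held a member that was lower, but only 4 of all 912 members were.

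The last list joins genes that the study names as Pou4f1-dependent from earlier work with retinal ganglion cell genes, Rbpms and Gap43 among them, that it names as bound in these libraries, so it is no independent choice. Its 10 members lie in 6 of the genes, 7 of the 10 were higher and 9 lay above both IgG libraries. Rbpms held 2, the region above and one in intron 5 with 125 and 156 against 2.63 and 0. Rbfox1, a neuronal splicing regulator gene, held 4, of which 2 passed: 271 and 420, and 131 and 257, both with 0 in IgG. The rest had IgG signal, the uneven region above and one with 171 and 89.6 against 13.96 and 48.3.

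Grm4, a metabotropic glutamate receptor gene, had 298 and 290 against 4.39 and 2.56 in its last intron. Mapk10, which codes for the neuronal kinase JNK3, had 233 and 171 against 0 and 5.29, and Cdh4, the gene of R-cadherin, had 211 and 242 against 0 and 7.63. These 3 passed the threshold. Gap43, a growth cone gene, had 185 and 331 against 26.1 and 0 and did not (limma adjusted p 0.0735). The consensus was at the centre of 1 of the 10.

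At the other end, 25 members had lower signal in both Pou4f1 libraries than in both IgG libraries. Their median was 75.02 and 65.6 in Pou4f1 and 144 and 172 in IgG, while the other 887 had 191 and 245 against 1.09 and 0. Over 50% of the bases were repeat-masked in 15 of the 25, none were in 6, and their median GC content was 59.7% against 48.1% in the other members. Of the 43 members that were over 50% repeat-masked, 15 lay below IgG and 5 were higher in Pou4f1. Of the 28 that also had a GC content over 55%, 13 lay below IgG and 0 were higher, 2 lying above both IgG libraries. The part of repeats and base composition in these values was not tested.

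**Figure D5:**
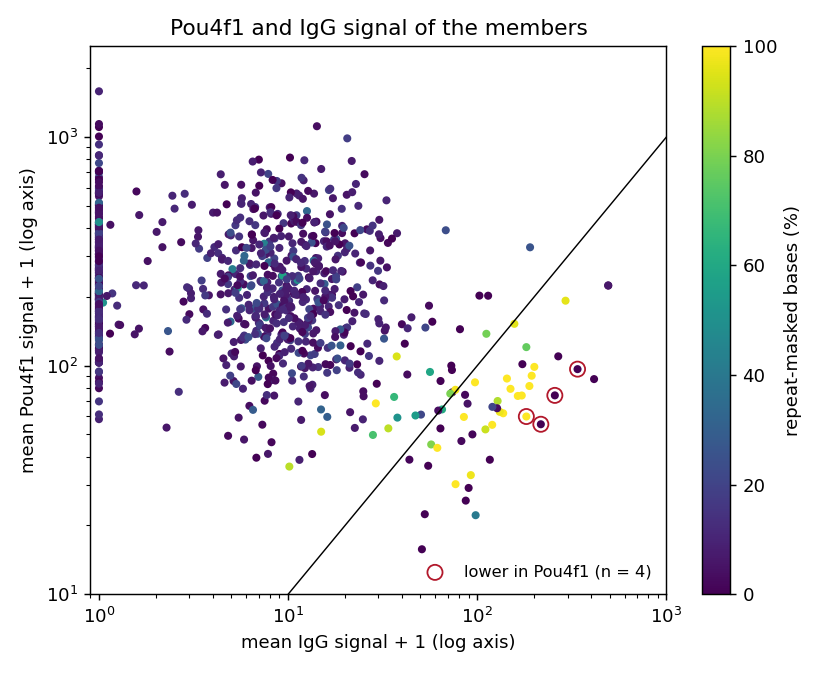
Mean Pou4f1 signal plus 1 (vertical log axis) against mean IgG signal plus 1 (horizontal log axis) of the 912 members, coloured by the share of repeat-masked bases. The line marks equal signal, red rings mark the 4 members lower in Pou4f1, and yellow points near and below the line are members made of repeats.

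The 4 members lower in Pou4f1 were in Epg5, Cbfb, Secisbp2l and Il1rapl2. Cbfb codes for the partner of Runx factors, and its member, chr8:105212043-105212905 in intron 5, had 88.2 and 103 in the Pou4f1 libraries but 382 and 294 in those of IgG (limma log2 difference -1.80, SE 0.412, with an adjusted p of 0.0362). It holds no repeat-masked base. Secisbp2l, also without repeats, had 76.8 and 69.3 against 262 and 250. Epg5, an autophagy gene, had 43.2 and 65.6 against 161 and 270, and Il1rapl2, whose member is wholly repeat-masked, had 59.9 and 57.8 against 162 and 199. In each of the 4, the Pou4f1 and IgG values do not overlap.

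The lowest log2 differences were less certain. With Pou4f1, Tbc1d9 had 42.3 and 0 against 104 and 89.8 with IgG, and Dnah6, an axonemal dynein gene whose member is 66 bp long, had 58.6 and 0 against 69.3 and 82.2. A value of 0 in 1 replicate sets the size of both. Vps13b had 49.7 and 6.65 against 88.5 and 89.5, and Wwc2 had 102 and 70.97 against 200 and 627. None of these 4 passed the threshold (adjusted p from 0.0850 to 0.254 from limma).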

How the data were processed

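The authors trimmed paired-end CUT&Tag reads, masked low-complexity sequence, aligned to mm10 with Bowtie2 2.4.5 and found regions by SEACR, using its relaxed mode. Rabbit IgG served as the control when regions were called. Their deposited table gives the signal of 4 libraries over 8038 regions. How it was scaled is not stated in these sources. The column named negative control was taken as IgG, the only negative control the study names. The signal times region length was a whole multiple of a step of its library (45.0 and 61.2 for Pou4f1, 76.2 and 88.9 for IgG) for at least 99.98% of values within a tolerance of 0.05 steps, which does not give read counts. Depth is unknown, and nothing says that the libraries of a group came from separate litters, so p-values measure only the spread between these libraries.

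Regions were placed on GENCODE M21 and GRCm38.p6. limma 3.58.1 in R 4.3.3 compared log2(signal + 1) of 2 Pou4f1 and 2 IgG libraries over all regions without scaling. The added 1 makes low values understate a difference. With column totals as library sizes the median log2 difference of the members went from 5.97 to 3.48. Motifs were searched on both strands of the central 200 bp and of flanks 2 kb away. Both steps were tested on simulated data. Python 3.11.15, numpy 2.4.6, pandas 2.3.3, scipy 1.17.1, pysam 0.24.0 and matplotlib 3.10.9 were used.

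Members, lists, motifs and the rule for named regions were chosen with earlier results of these data known. Named were the 10 members of highest mean Pou4f1 signal, those of genes with 4 or more, the 12 highest with the consensus, the 3 highest of each list, all of the last list, the 5 lowest log2 differences and the extreme replicate ratios. Alternatives were the scaling, pseudocount, low-signal filter, threshold, each library left out, the rule of position and the motif window. One gene that this rule names is not reported here.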

Additional observations from a re-analysis of the deposited data

How the results depend on the processing

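No paired analysis was possible because the IgG columns carry no replicate number. The number of members was 807 to 951 under the other rules of position. The count of members higher in Pou4f1, 637, was 439 and 821 with pseudocounts of 0.1 and 10, 415 and 326 with IgG taken as 2 and 4 times shallower, 277 with column totals as library sizes, and 340 to 841 with 1 library left out. The 4 members lower became 1 and 9 with those pseudocounts, 8 and 18 with IgG taken as shallower, 37 with column totals, 9 with a variance trend, 0 at a 2-fold threshold and 2 to 16 with 1 library left out. The median log2 difference, 5.97, was 7.66 and 3.90 with the pseudocounts, 5.47 and 4.99 with IgG taken as shallower, 3.48 with column totals and 5.76 to 6.70 with 1 library left out. The median replicate ratio, 1.20, was 1.37 in members above the median signal and 1.28 after division by column totals. The consensus share, 12.4%, was 6.58%, 21.4% and 29.2% in the central 100 bp, the central 400 bp and whole regions, and 26.4% for the inner letters.

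Of the 187 named regions, those that changed direction were Rbfox1 without the library named IgG (-0.47, against 5.72 without that named negative control), and Ldlrad3 with IgG taken as 2 times shallower (-0.36). With IgG 4 times shallower they were Ldlrad3 (-1.35) and 2 of Ptprn2 (-0.44 and -0.15). With column totals they were Gli2 (-0.94 and -0.76), Ccl1 (-0.27 and -0.81), Ptprn2 (-2.46 and -2.18), Rbfox1 (-1.78 and -1.28), Ldlrad3 (-0.032 and -3.37), Lmx1b (-1.92), Tanc1 (-0.73), Gabbr2 (-1.74), Eri3 (-0.99), Casz1 (-0.11), Camta1 (-1.47), Auts2 (-1.24) and Fgfr2 (-1.92). Column totals sum the signal of regions called on Pou4f1. The cause of each change was not tested. The IgG libraries are at 0 in 435 and 499 members, and what depth limits is unknown.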
